A study of Drosophila melanogaster with 15 samples.

Results

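The 10 genes described here carry out the synthesis, transport and reception of dopamine and serotonin in the fly: ple, Ddc and Trh (synthesis), Vmat, DAT and SerT (transport), and Dop1R1, Dop2R, 5-HT2A and 5-HT1A (reception). They were chosen by name for these roles, with earlier results of these data known. Each is read by 1 probeset, giving 10 of the 16322 probesets measured. The platform annotation names 9 of them. The probeset of Trh carries no gene symbol there. It was named through the study's own list of genes called in elav/v105975 against elav/+, by an accession that RefSeq assigns to neuronal tryptophan hydroxylase (Trhn), so that its place among the named genes is not independent of its call in that comparison.

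The values come from total RNA of whole Drosophila melanogaster heads, measured on Affymetrix Drosophila Gene 1.0 ST microarrays, with 5 arrays for each of 3 genotypes. Heads of elav/v105975 flies carried both the elav-Gal4 driver, which is active selectively in neurons, and the UAS transgene v105975, an RNAi hairpin against Clic, the fly chloride intracellular channel gene. Heads of v105975/+ flies carried the hairpin transgene without a driver, and heads of elav/+ flies carried the driver without the hairpin. A difference between v105975/+ and elav/+ can therefore come from either transgene, which cannot be told apart, and no genotype lacked both. Both transgenes bring copies of the eye colour marker w with them. The sources used here give neither the age and sex of the flies nor whether arrays of 1 genotype stand for separate crosses or collections of heads, and the spread that the p-values rest on, which may be technical, is that of these 15 arrays alone. Each value is a log2 probeset intensity, the brightness of the probes for a gene after normalization, and intensities of different probesets cannot be set against each other. Since RNA was taken from whole heads, fewer cells of a type and less RNA per cell cannot be told apart.

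Dopamine is made from tyrosine, which tyrosine hydroxylase (ple) turns into L-DOPA and aromatic amino acid decarboxylase (Ddc) into dopamine. Serotonin is made from tryptophan by tryptophan hydroxylase (Trh) and the same decarboxylase. A vesicular transporter (Vmat) loads both amines into synaptic vesicles, the plasma membrane transporters DAT and SerT take them back up, and receptors coupled to G proteins read them. In the fly head these amines serve arousal, sleep, learning and appetite, and ple and Ddc are also used outside neurons, in the epidermis, where dopamine is a precursor of cuticle pigment and of cuticle hardening.

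Clic was lower in both hairpin genotypes than in elav/+, with a log2 fold change of -0.76 in elav/v105975 (adjusted p = 5.48e-07, limma) and of -0.22 in v105975/+ (adjusted p = 0.0269). The w transcript was 3.98 log2 units higher in elav/v105975 than in elav/+ (adjusted p = 1.53e-14) and 4.28 higher than in v105975/+ (adjusted p = 5.19e-15). The median intensity of the 15 arrays lay between 6.16 and 6.24. None of the 10 probesets was among the dimmest 25% of probesets, but Trh lay near the middle, with 49.5% of probesets dimmer, and SerT had 57.5% dimmer. The elav/+ values of Trh, 5.72 to 6.12, were below the median of every array. A gene was called where the Benjamini-Hochberg adjusted p over all 16322 probesets, from limma, was at or below 0.05, and both comparisons with elav/+ used the same 5 elav/+ arrays.

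Most of the 10 genes had a higher mean in the 2 hairpin genotypes than in elav/+, whether called or not. Between elav/v105975 and elav/+ heads, Ddc, Trh, Vmat, SerT, Dop2R and 5-HT2A rose, which is 6 of 10 genes, and none fell. Over all probesets 4.26% were called higher in that comparison, 5.17% lower and 9.43% in either direction. Between v105975/+ and elav/+ heads, Ddc, Trh, Dop1R1 and 5-HT2A rose, 4 of 10, against 2.62% of all probesets called higher, 3.47% lower and 6.10% in either direction. Between elav/v105975 and v105975/+ heads, Ddc alone rose, 1 of 10, where 0.214% of all probesets were called higher, 0.202% lower and 0.417% in either direction. An unadjusted p of 0.05 was met by 9, 7 and 2 of the 10 genes in these comparisons, beside 23.5%, 18.5% and 9.07% of all probesets. Without Trh the calls at the adjusted threshold were 5, 3 and 1 of 9, and an unadjusted p of 0.05 was met by 8, 6 and 2 of 9. In each of the 3 comparisons 9 log2 fold changes were above 0 and 1 was below, that of ple in the comparisons with elav/+ and that of Dop1R1 between the hairpin genotypes. Their medians were 0.19, 0.16 and 0.08, beside -0.0017, 0.0069 and -0.0035 over all probesets. The called genes of elav/v105975 heads stood at 114% to 140.1% of their elav/+ level. In a fit of only the 10 arrays compared, 5 calls against elav/+ were lost, those of Vmat and SerT in elav/v105975 (adjusted p = 0.0699 and 0.0687, limma) and those of Ddc, Trh and Dop1R1 in v105975/+ (adjusted p = 0.106, 0.0840 and 0.0968).

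**Figure D1:**
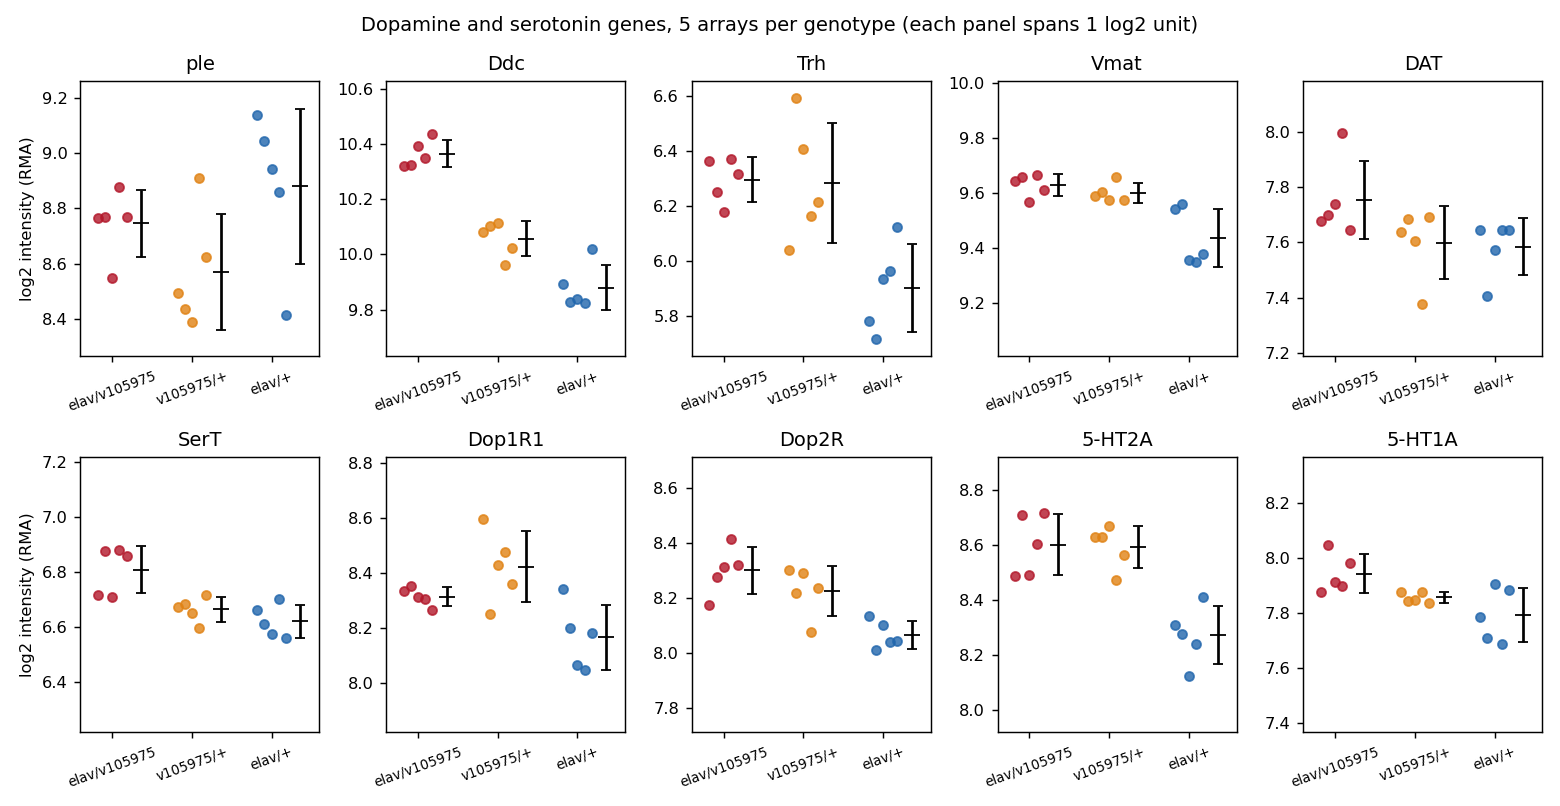
Each panel plots the log2 intensity of 1 gene (y axis, RMA) on the 5 arrays of each genotype (x axis: elav/v105975, v105975/+, elav/+), with points for arrays and a bar for the mean and SD, and every panel spans 1 log2 unit. All 5 elav/v105975 arrays of Ddc lie above every other array, and for 5-HT2A the arrays of both hairpin genotypes lie above those of elav/+ and overlap each other.

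Ddc showed the largest fold change of the 10 genes in elav/v105975 heads against either other genotype. Its log2 intensity was 10.32, 10.32, 10.40, 10.35 and 10.44 on the elav/v105975 arrays, 10.08, 10.10, 10.12, 9.96 and 10.02 on the v105975/+ arrays and 9.89, 9.83, 9.84, 9.82 and 10.02 on the elav/+ arrays. All 5 elav/v105975 arrays were above every other array, and the v105975/+ and elav/+ arrays overlapped only through the highest elav/+ array. On the log2 scale Ddc was higher by 0.49 ± 0.0503 (SE) in elav/v105975 than in elav/+, or 140.1% of the elav/+ level with a 95% confidence interval of 130.1% to 150.9% (adjusted p = 2.77e-05, limma; exact permutation p = 0.00794, two-sided). This exact p is the smallest that 5 arrays against 5 can give. Over all probesets, 10% separated elav/v105975 from elav/+ without overlap, as did 6 of the 10 genes, or 5 of 9 without Trh.

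Ddc was also the only one of the 10 genes that passed the test between the hairpin genotypes, with a log2 fold change of 0.31 in elav/v105975 over v105975/+ (adjusted p = 0.00758, limma; exact permutation p = 0.00794). Of all probesets, 2.30% separated these genotypes without overlap. In v105975/+ heads Ddc stood 0.18 above elav/+ (adjusted p = 0.0492, limma), and that call was lost when any of 12 of the 15 arrays was left out, all but v105975/+ replicate 4, elav/+ replicate 5 and elav/v105975 replicate 5, with adjusted p between 0.0593 and 0.116. The calls of Ddc in elav/v105975 held without any single array.

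The tyrosine hydroxylase gene ple, which acts just before Ddc and is the rate-limiting step of dopamine synthesis, passed no test. Its log2 intensity was 8.76, 8.77, 8.55, 8.88 and 8.77 in elav/v105975, 8.49, 8.43, 8.39, 8.91 and 8.62 in v105975/+ and 9.14, 9.05, 8.94, 8.86 and 8.41 in elav/+. The elav/+ arrays were the most spread and overlapped both other genotypes, with replicate 5 low and the other 4 at 8.86 or above. The estimated log2 fold change of ple was -0.13 in elav/v105975 over elav/+ (95% confidence interval -0.40 to 0.13, adjusted p = 0.581, limma) and -0.31 in v105975/+ over elav/+ (-0.58 to -0.04, adjusted p = 0.191). Without elav/+ replicate 5, ple in v105975/+ was called lower, at -0.43 (adjusted p = 0.0277).

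Trh, whose enzyme commits tryptophan to serotonin, measured 6.36, 6.25, 6.18, 6.37 and 6.32 in elav/v105975, 6.04, 6.59, 6.41, 6.16 and 6.22 in v105975/+ and 5.78, 5.72, 5.93, 5.96 and 6.12 in elav/+. All elav/v105975 arrays lay above all elav/+ arrays, while the v105975/+ arrays were the most spread and their lowest fell within the elav/+ range. Relative to elav/+ the log2 fold change of Trh was 0.39 ± 0.0979 (SE) in elav/v105975 (adjusted p = 0.0208, limma; exact permutation p = 0.00794) and 0.38 in v105975/+ (adjusted p = 0.0325; exact permutation p = 0.0159). Between the hairpin genotypes it was 0.01 (95% confidence interval -0.20 to 0.22, adjusted p = 0.982). The call in elav/v105975 was lost without elav/+ replicate 2 (adjusted p = 0.0522), and the v105975/+ call when elav/+ replicate 1, 2, 3 or 4 or v105975/+ replicate 2 or 3 was left out (adjusted p 0.0548 to 0.0789).

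Among the transporters, Vmat, the carrier that fills synaptic vesicles with amines, measured 9.64, 9.66, 9.57, 9.67 and 9.61 in elav/v105975, 9.59, 9.60, 9.57, 9.66 and 9.57 in v105975/+ and 9.54, 9.56, 9.35, 9.35 and 9.38 in elav/+. Both hairpin genotypes lay above all elav/+ arrays, and elav/+ split into a pair of arrays just below them and 3 lower ones. Vmat separated v105975/+ from elav/+ without overlap, as did 5-HT2A, so 2 of the 10 genes did so where 7.19% of all probesets did. Its log2 fold change over elav/+ was 0.19 ± 0.0508 (SE) in elav/v105975 (adjusted p = 0.0273, limma) and 0.16 in v105975/+, which missed the threshold (adjusted p = 0.0753). The call in elav/v105975 was lost without elav/+ replicate 3, 4 or 5 or elav/v105975 replicate 1, 2 or 4 (adjusted p 0.0553 to 0.0719), and Vmat was called in v105975/+ without elav/+ replicate 1 or 2 (adjusted p = 0.0478 and 0.0394).

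The serotonin transporter gene SerT measured 6.72, 6.88, 6.71, 6.88 and 6.86 in elav/v105975, 6.67, 6.68, 6.65, 6.60 and 6.72 in v105975/+ and 6.66, 6.61, 6.57, 6.70 and 6.56 in elav/+. The elav/v105975 arrays lay above the elav/+ arrays, by a narrow margin between the nearest of them, and v105975/+ overlapped both other genotypes. SerT was 0.19 ± 0.0499 (SE) higher in elav/v105975 than in elav/+ on the log2 scale (adjusted p = 0.0289, limma), 0.04 higher in v105975/+ than in elav/+ (adjusted p = 0.739) and 0.14 higher in elav/v105975 than in v105975/+ (adjusted p = 0.354; exact permutation p = 0.0159). The first of these was lost without elav/+ replicate 2, 3 or 5 or elav/v105975 replicate 2, 4 or 5 (adjusted p 0.0549 to 0.0762).

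The dopamine transporter gene DAT measured 7.68, 7.70, 7.74, 7.999 and 7.65 in elav/v105975, 7.64, 7.69, 7.61, 7.37 and 7.69 in v105975/+ and 7.65, 7.41, 7.57, 7.65 and 7.65 in elav/+. Most arrays of all 3 genotypes lay close together, with replicate 4 high in elav/v105975 and low in v105975/+. Elav/+ replicates 1, 4 and 5 and elav/v105975 replicate 5 held the same value to every digit, 7.645760976. The reason was not tested, and the spread of DAT may be understated. The log2 fold change over elav/+ was 0.17 in elav/v105975 (95% confidence interval 8.84e-04 to 0.34, adjusted p = 0.210, limma) and 0.02 in v105975/+ (adjusted p = 0.952).

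**Figure D2:**
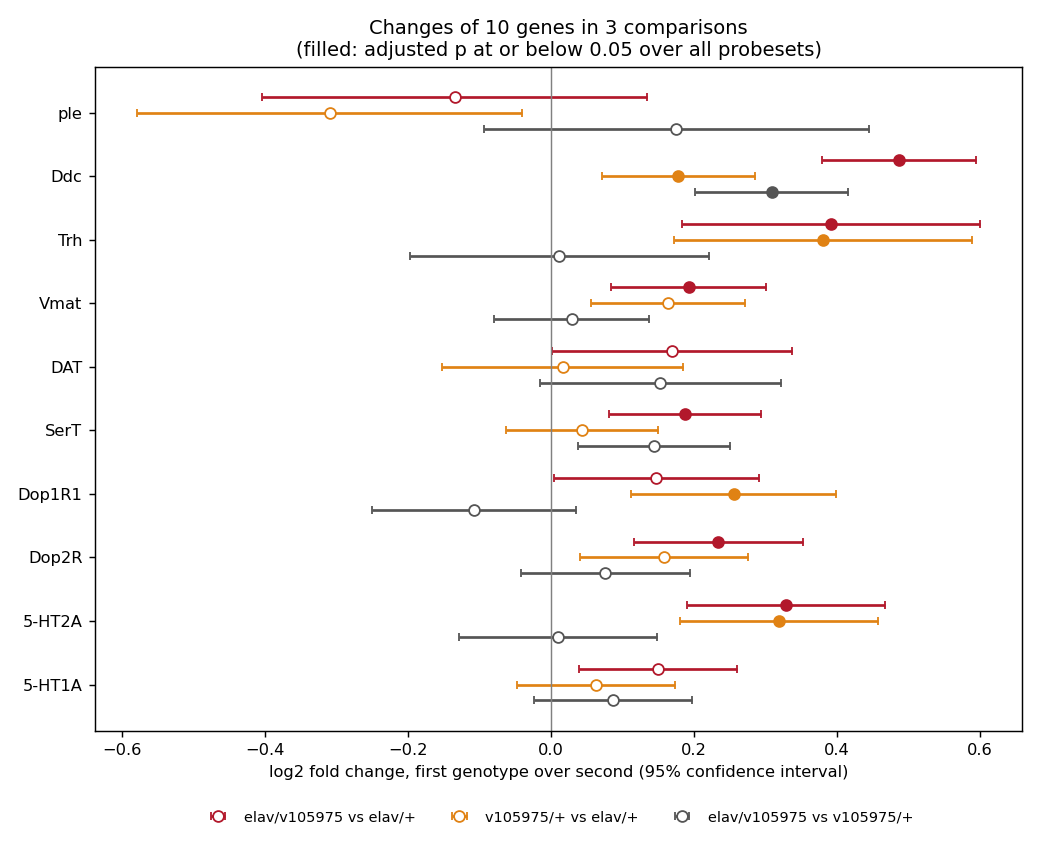
Log2 fold changes (x axis, first genotype over second, with 95% confidence intervals) are plotted for the 10 genes (rows) in 3 comparisons (colours), filled where the adjusted p was at or below 0.05. Ddc reaches 0.49 in elav/v105975 over elav/+ and is the only gene filled in the comparison of elav/v105975 with v105975/+.

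Among the receptors, the serotonin receptor gene 5-HT2A moved most. It measured 8.49, 8.71, 8.49, 8.60 and 8.72 in elav/v105975, 8.63, 8.63, 8.67, 8.47 and 8.56 in v105975/+ and 8.31, 8.28, 8.13, 8.24 and 8.41 in elav/+. Both hairpin genotypes lay wholly above elav/+ and overlapped each other. Relative to elav/+ the log2 fold change of 5-HT2A was 0.33 ± 0.0651 (SE) in elav/v105975, or 125.6% of the elav/+ level (adjusted p = 0.00503, limma; exact permutation p = 0.00794), and 0.32 in v105975/+ (adjusted p = 0.00856; exact permutation p = 0.00794). Between the hairpin genotypes the log2 fold change was 0.01 (95% confidence interval -0.13 to 0.15, adjusted p = 0.977). Both calls held without any single array.

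The gene for 5-HT1A, a serotonin receptor that lowers cAMP, measured 7.88, 8.05, 7.91, 7.90 and 7.98 in elav/v105975, 7.88, 7.84, 7.85, 7.88 and 7.84 in v105975/+ and 7.79, 7.71, 7.90, 7.69 and 7.88 in elav/+. The 3 genotypes overlapped, and the elav/+ arrays were the most spread. Replicate 1 of elav/v105975 and replicates 1 and 4 of v105975/+ held the same value to every digit, 7.87713288, for a reason that was not tested. The log2 fold change over elav/+ was 0.15 in elav/v105975 (adjusted p = 0.0889, limma; exact permutation p = 0.0397) and 0.06 in v105975/+ (adjusted p = 0.600), so neither was called.

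Dop2R, the D2-like dopamine receptor, which lowers cAMP, measured 8.18, 8.28, 8.31, 8.42 and 8.32 in elav/v105975, 8.30, 8.22, 8.29, 8.08 and 8.24 in v105975/+ and 8.13, 8.01, 8.10, 8.04 and 8.04 in elav/+. The elav/v105975 arrays lay above all elav/+ arrays, and 1 v105975/+ array fell within the elav/+ range. Against elav/+ its log2 fold change was 0.23 ± 0.0553 (SE) in elav/v105975 (adjusted p = 0.0153, limma; exact permutation p = 0.00794) and 0.16 in v105975/+ (adjusted p = 0.119). The call in elav/v105975 held without any single array.

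Dop1R1, the D1-like dopamine receptor, which raises cAMP, was the only one of the 10 genes with its highest mean in v105975/+. It measured 8.34, 8.35, 8.31, 8.31 and 8.27 in elav/v105975, 8.60, 8.25, 8.43, 8.48 and 8.36 in v105975/+ and 8.34, 8.20, 8.07, 8.05 and 8.18 in elav/+. Replicate 1 of elav/+ lay among the hairpin arrays of both genotypes, and the 5 elav/v105975 arrays were tightly grouped. The log2 fold change over elav/+ was 0.15 in elav/v105975 (adjusted p = 0.198, limma) and 0.26 ± 0.0672 (SE) in v105975/+ (adjusted p = 0.0360; exact permutation p = 0.0159). Leaving out any of these arrays ended the call in v105975/+: elav/+ replicate 2, 3, 4 or 5 or v105975/+ replicate 1, 3 or 4 (adjusted p 0.0574 to 0.0938). Between the hairpin genotypes the log2 fold change was -0.11 (95% confidence interval -0.25 to 0.04, adjusted p = 0.669).

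Whether genes of the same role changed by different amounts was tested per array, as the difference of the log2 values of a pair of genes. Over 36 such differences within synthesis, transport and reception, no exact permutation p passed Benjamini-Hochberg adjustment, which the smallest exact p that 5 arrays against 5 can give, 0.00794, could pass over 36 tests only if at least 6 of them reached it. The sizes are therefore given as a description. The change of 5-HT2A exceeded that of 5-HT1A by 0.18 in elav/v105975 over elav/+ and by 0.26 in v105975/+ over elav/+ (exact permutation p = 0.00794 in each, adjusted p = 0.143). The change of ple was below that of Ddc by 0.62 in elav/v105975 over elav/+ (a difference of -0.62, exact permutation p = 0.0317, adjusted p = 0.167). The change of ple was likewise below that of Trh, by a difference of -0.53 (exact permutation p = 0.0476, adjusted p = 0.167).

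The other genes of these pathways were described by list, with the same test. Over all probesets 9.43% were called in elav/v105975 over elav/+ and 6.10% in v105975/+ over elav/+, with medians of -0.0017 and 0.0069. The other dopamine and serotonin receptors measured, DopEcR, 5-HT1B, 5-HT2B and 5-HT7, gave no call out of 4 in any comparison, with log2 fold changes between -0.02 and 0.12 in elav/v105975 over elav/+ and a median of 0.07. For these 4, none passed an unadjusted p of 0.05 in elav/v105975 over elav/+ and 1 did in v105975/+ over elav/+. The list of genes that make, recycle or regulate the pterin cofactor of the hydroxylases (Pu, pr, Sptr, Dhpr, Pcd, and Catsup, which restrains that synthesis) gave no call out of 6, and all 6 log2 fold changes were below 0 in both comparisons with elav/+, with medians of -0.08 in elav/v105975 and -0.11 in v105975/+. An unadjusted p of 0.05 was met by 2 of the 6 in elav/v105975 over elav/+ and by none in v105975/+ over elav/+. The phenylalanine hydroxylase gene Hn, which makes tyrosine and uses the same cofactor, was lower in elav/v105975 (-0.51, adjusted p = 4.11e-04, limma) and in v105975/+ (-0.43, adjusted p = 0.00201) than in elav/+. Its probeset was named in the same way as that of Trh, and it was left out of the count.

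Of 8 genes that conjugate amines or use dopamine for pigment, only b, whose enzyme makes the beta-alanine that is joined to dopamine, was called, at -0.39 in elav/v105975 over elav/+ (adjusted p = 0.00382, limma) and -0.08 in v105975/+ over elav/+ (adjusted p = 0.666). That call held without any single array. In elav/v105975 over elav/+, 9.43% of all probesets were called in either direction. The 8 log2 fold changes there lay between -0.41 and 0.16, with a median of -0.07, and 5 were below 0. An unadjusted p of 0.05 was met by 3 of the 8, beside 23.5% of all probesets. In v105975/+ over elav/+ none of the 8 was called, where 6.10% of all probesets were. The ebony gene e, whose enzyme joins beta-alanine to dopamine, and the tan gene t, which reverses that step, had log2 fold changes of -0.06 and -0.09 in elav/v105975 over elav/+ (adjusted p = 0.621 and 0.658).

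Of 9 genes for the related amines octopamine and tyramine, Tbh, which makes octopamine from tyramine, rose in elav/v105975 (0.24, adjusted p = 0.0146, limma) and in v105975/+ (0.21, adjusted p = 0.0417) over elav/+. The tyramine receptor gene TyrRII fell in elav/v105975 (-0.37, adjusted p = 0.0274) and in v105975/+ (-0.35, adjusted p = 0.0462). Over all probesets 4.26% were called higher and 5.17% lower in elav/v105975, and 2.62% and 3.47% in v105975/+. Of the 9 log2 fold changes, 6 were above 0 in elav/v105975 and 8 in v105975/+, with a median of 0.07 in each. The Tbh call in elav/v105975 was lost in a fit of only the 10 arrays compared (adjusted p = 0.0503) and relative to the mean of 8 neuron markers on each array (0.11, adjusted p = 0.173). TyrRII stayed called relative to these markers, at -0.49 in elav/v105975 (adjusted p = 0.00489) and -0.44 in v105975/+ (adjusted p = 0.0159). The Tbh call in v105975/+ was lost without 12 of the 15 arrays, all but elav/+ replicate 1 and elav/v105975 replicates 3 and 5 (adjusted p 0.0524 to 0.105). The TyrRII call in elav/v105975 was lost without elav/+ replicate 3, 4 or 5 or elav/v105975 replicate 2 (adjusted p 0.0556 to 0.0685), and its v105975/+ call without 11 arrays, all but elav/+ replicate 2, v105975/+ replicate 4 and elav/v105975 replicates 3 and 5 (adjusted p 0.0510 to 0.110).

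Among 11 genes that act below amine receptors, 3 rose in elav/v105975 over elav/+ and none fell, with a list median of 0.13, where 4.26% of all probesets rose and 5.17% fell, with a median of -0.0017. All 11 log2 fold changes were above 0 there. An unadjusted p of 0.05 was met by 9 of the 11, beside 23.5% of all probesets. In 6 of the 11 the genotypes did not overlap, beside 10% of all probesets. Gprk1 and Gprk2, kinases that phosphorylate active G protein-coupled receptors, rose by 0.29 (adjusted p = 0.00304, limma) and 0.21 (adjusted p = 0.00269), and Galphaq, the G protein subunit that acts through phospholipase C, by 0.15 (adjusted p = 0.0343). The Gprk1 and Gprk2 calls held without any single array, whereas that of Galphaq was lost without elav/+ replicate 2, 3, 4 or 5 or elav/v105975 replicate 1, 2, 3 or 4 (adjusted p 0.0532 to 0.0803). The Galphaq call was also lost in a fit of only the 10 arrays compared (adjusted p = 0.0648). It was lost too with the replicate number as an added term (adjusted p = 0.0705). Gprk1 and Gprk2 stayed called in both fits. Relative to the mean of 8 neuron markers on each array none of the 3 was called, with Gprk1 at 0.16 (adjusted p = 0.0819), Gprk2 at 0.09 (adjusted p = 0.187) and Galphaq at 0.03 (adjusted p = 0.725). In v105975/+ over elav/+ Gprk2 alone was called (0.14, adjusted p = 0.0492), a call lost whichever of the 15 arrays was left out (adjusted p 0.0530 to 0.127). The adenylyl cyclase gene rut and the phosphodiesterase gene dnc, which make and break down cAMP, had log2 fold changes of 0.13 and 0.10 in elav/v105975 over elav/+ (adjusted p = 0.131 and 0.177). None of the 11 genes passed between elav/v105975 and v105975/+, where 1 met an unadjusted p of 0.05, beside 9.07% of all probesets.

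**Figure D3:**
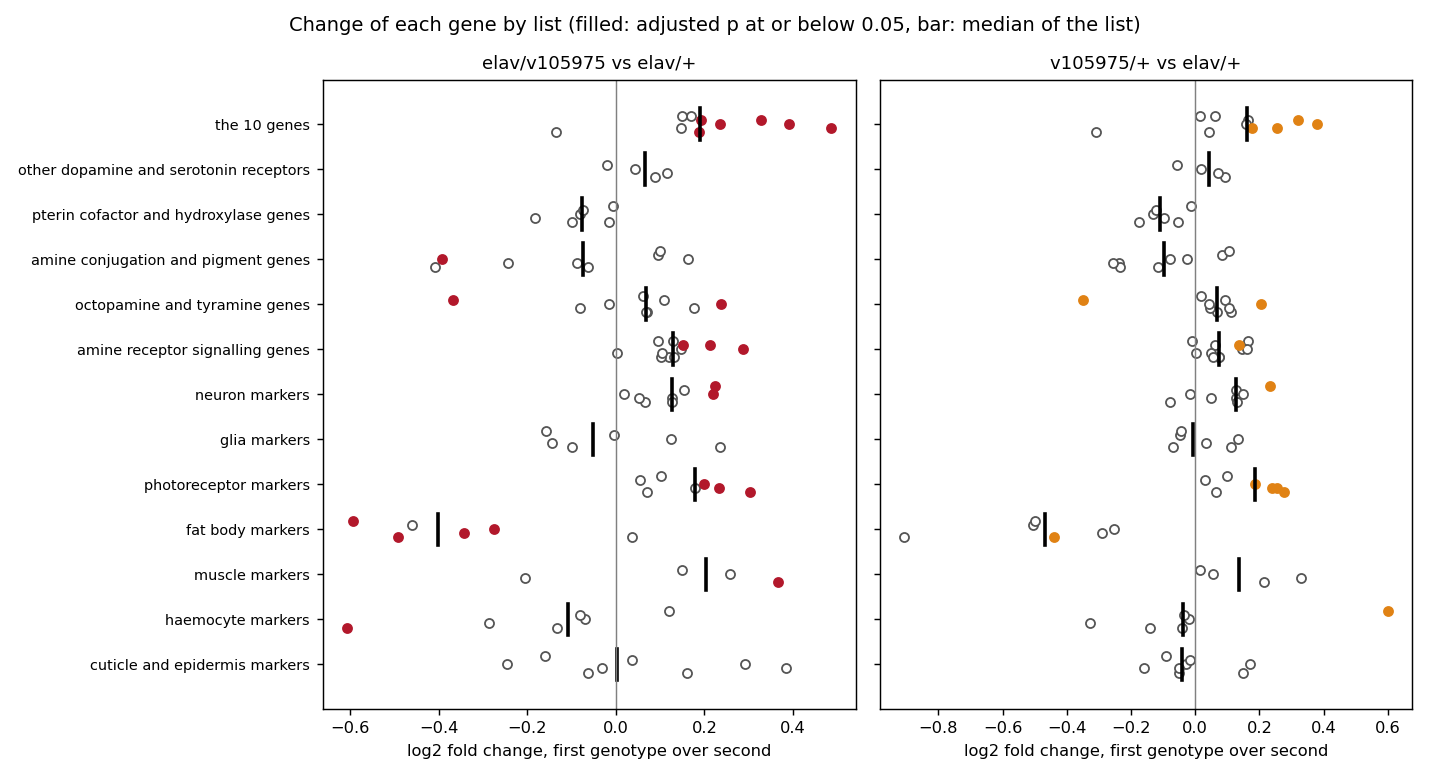
Log2 fold changes (x axis) of single genes (points, filled at an adjusted p of 0.05 or less) are grouped by list (rows), with a bar at each list's median, for elav/v105975 over elav/+ (left) and v105975/+ over elav/+ (right). The medians of the 10 genes, 0.19 and 0.16, lie beside those of the photoreceptor markers, 0.18 and 0.19, and those of the fat body markers lie at -0.40 and -0.47.

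Neuron, photoreceptor and fat body markers included calls in the same comparisons, and glia and epidermis markers did not. The neuron marker elav measured between 9.76 and 10.02 over all arrays and the glia marker repo between 7.35 and 7.68. In elav/v105975 over elav/+ 4.26% of all probesets were called higher and 5.17% lower, and in v105975/+ over elav/+ 2.62% and 3.47%. The sums given for marker lists add the unlogged intensities of their probesets. The brightest probesets weigh most in each sum, so a sum is not a level of the cell type. The log2 of the summed level of 8 neuron markers ran from 13.34 to 13.44 in elav/v105975, 13.30 to 13.42 in v105975/+ and 13.22 to 13.33 in elav/+. All 8 were above 0 in elav/v105975 over elav/+, with a median log2 fold change of 0.13, and Syn and futsch were called, while in v105975/+ over elav/+ 6 were above 0 and 2 below, with a median of 0.13, and Syn was called. The sum of 7 photoreceptor markers ran from 15.12 to 15.19 in elav/v105975, 15.14 to 15.20 in v105975/+ and 14.99 to 15.05 in elav/+, with 3 called higher in elav/v105975 and 4 in v105975/+. The sum of 6 fat body markers ran from 14.17 to 14.83 in elav/v105975, 14.35 to 14.57 in v105975/+ and 14.76 to 14.98 in elav/+, with 4 called lower in elav/v105975 and 1 in v105975/+. The brightest of the 6 were Yp1, Yp2 and Yp3, genes of the yolk proteins that females make, at up to 13.25, 13.17 and 12.87. The 4 calls in elav/v105975 were Yp1, Yp3, apolpp and Lsd-1. Since the sex of the flies is not given, a difference in sex cannot be told apart from one in fat body.

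Of these marker calls, those of ninaC in both comparisons and of apolpp, Yp1 and Yp3 were lost when some single array was left out (1 array for apolpp and 3 to 9 for the others, adjusted p 0.0503 to 0.0961). The sum of 6 glia markers overlapped between the genotypes (12.43 to 12.72 in elav/v105975, 12.57 to 12.71 in v105975/+ and 12.49 to 12.74 in elav/+), with none called and 4 of 6 below 0 in elav/v105975 over elav/+. The 6 log2 fold changes in that comparison lay between -0.16 and 0.23. An unadjusted p of 0.05 was met there by 3 of the 6, beside 23.5% of all probesets, and by none in v105975/+ over elav/+. None of 8 cuticle and epidermis markers was called, and their sum ran from 10.86 to 11.20 in elav/v105975, 10.74 to 11.12 in v105975/+ and 10.87 to 11.23 in elav/+. Muscle and haemocyte markers gave 1 call each in elav/v105975 over elav/+, Mhc at 0.37 (adjusted p = 0.00678, limma) and PPO2 at -0.61 (adjusted p = 0.0138), and PPO1 was called at 0.60 in v105975/+ over elav/+ (adjusted p = 0.0422), a call lost when any of 11 of the 15 arrays was left out (adjusted p 0.0505 to 0.0995). Of the 6 haemocyte markers, 1 was above 0 and 5 were below in each comparison with elav/+, with medians of -0.11 in elav/v105975 and -0.04 in v105975/+. Of the 4 muscle markers, 3 were above 0 and 1 was below in elav/v105975 over elav/+ (median 0.20), and all 4 were above 0 in v105975/+ over elav/+ (median 0.14).

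The part of these markers in the changes of the 10 genes was not tested, but the changes were also measured relative to the neuron markers, by subtracting from each array its mean over the 8 markers. This setting was chosen after the values had been seen. Ddc remained called in elav/v105975 over elav/+, at 0.36 (adjusted p = 0.00158, limma), and was the only call left among the 10 genes in any comparison. 5-HT2A stood at 0.21 in elav/v105975 (adjusted p = 0.0544) and 0.23 in v105975/+ (adjusted p = 0.0588) over elav/+, Trh at 0.27 (adjusted p = 0.111) and Dop2R at 0.11 (adjusted p = 0.233) in elav/v105975 over elav/+. Ddc in elav/v105975 over v105975/+ stood at 0.28 (adjusted p = 0.0977). The setting put the median log2 fold change over all probesets at -0.13 in elav/v105975 over elav/+ and at -0.08 in v105975/+ over elav/+. Of the probesets then called, 6.55% and 13.0% were higher in these comparisons, where 45.2% and 43.0% were as deposited.

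**Figure D4:**
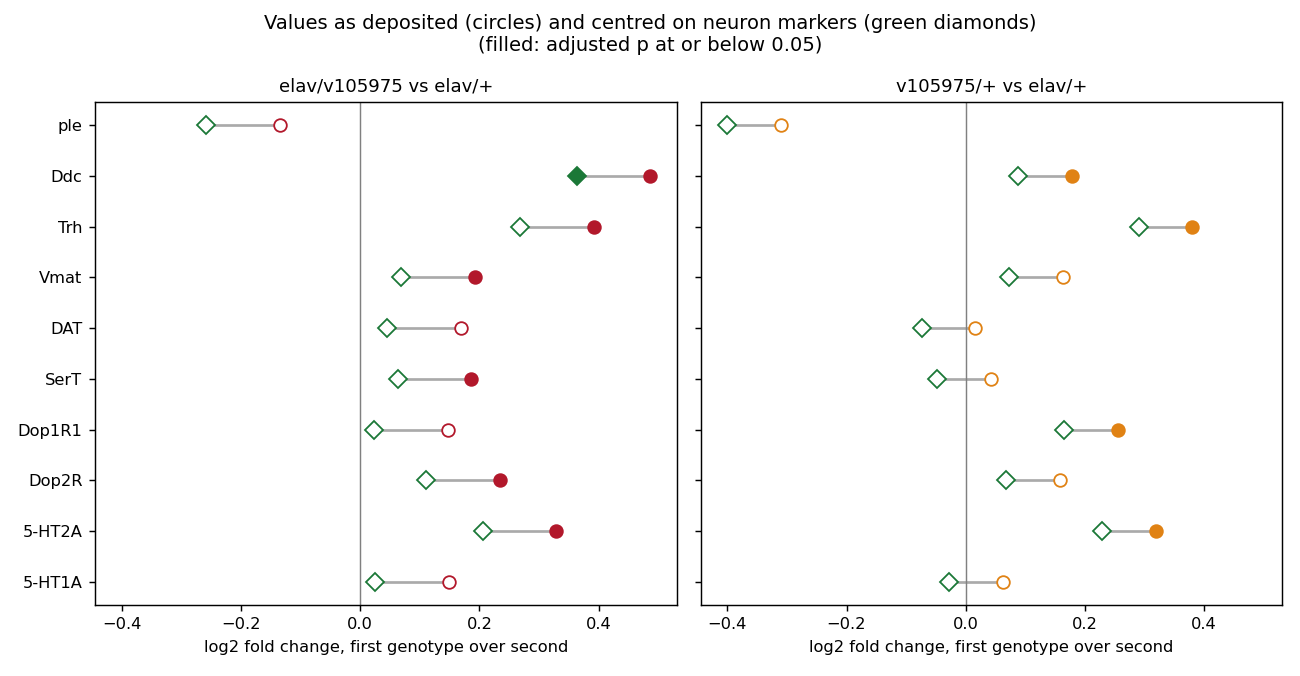
Log2 fold changes (x axis) of the 10 genes (rows) over elav/+ are shown as deposited (circles) and relative to 8 neuron markers (green diamonds), for elav/v105975 (left) and v105975/+ (right), filled at an adjusted p of 0.05 or less. Of the diamonds, only Ddc in elav/v105975, at 0.36, is filled.

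For the 7 genes called in any comparison, the probesets with the most similar profile over the 15 arrays were found by the root mean square (RMS) difference of their centred log2 values. The nearest to Ddc was bip1, with an RMS difference of 0.0850 where the RMS of Ddc itself was 0.210. The next were nrm, a cell adhesion gene (0.0958), and rk, the receptor of the hormone bursicon (0.0987). For Trh the nearest were CG7966, Proc, which encodes the neuropeptide proctolin, and Inos (0.116 to 0.119). Vmat lay nearest to Ugt316A1, CG5934 and the acetylcholine receptor subunit gene nAChRalpha7 (0.0441 to 0.0474). The nearest to SerT were plx, alpha-Man-Ia and BicD (0.0508 to 0.0520). Dop1R1 lay nearest to rdgC, a phosphatase gene of photoreceptors, form3 and Slob (0.0559 to 0.0611), and Dop2R to ChT, onecut, which encodes a transcription factor, and PRL-1 (0.0510 to 0.0562). For 5-HT2A the nearest were Ugt36E1, inaF-B and Tollo (0.0843 to 0.0867). The RMS of the genes themselves was 0.233 for Trh, 0.104 for Vmat, 0.0992 for SerT, 0.140 for Dop1R1, 0.120 for Dop2R and 0.177 for 5-HT2A. A small difference can therefore reflect a gene that varied little.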

How the data were processed

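The authors hybridized biotin-labelled material prepared from RNA of fly heads to Affymetrix Drosophila Gene 1.0 ST arrays. They deposited log2 intensities per probeset, made by robust multi-array average (RMA) in oligo 1.44.0 per the submitters' processing notes. RMA corrects the background, normalizes arrays by quantiles and summarizes probes, which hides any shift common to most genes. No source used here names a genome build, and no coordinates or sequences were printed. The number of arrays limits the precision.

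The deposited values of 16322 probesets on 15 arrays entered 1 limma 3.58.1 model with genotype as its only term (R 4.3.3, lmFit, contrasts.fit, eBayes), p-values were adjusted by the Benjamini-Hochberg method across the whole array, and 0.05 was the threshold. Each of the 10 genes was also tested by an exact two-sided permutation test. The scripts were tested on simulated arrays. The platform annotation gave 1 symbol for 13441 probesets, several for 555 and none for 2326, and 13064 matched a RefSeq gene. Trh, Hn, w, b, ninaC, Eaat1, Mhc, Pka-C1 and Syt1 were named from supplementary lists of the study by accession or symbol. The 10 genes, all named, and the pathway and marker lists were chosen with earlier results of these data known. Of the list genes, those called and a few of defined function are named.

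Alternatives were a fit of only the arrays compared, array weights, a block for the replicate number, an intensity trend, removal of the dimmest 25% of probesets, median centring, an adjusted p of 0.01 and leaving out each array. Centring on neuron markers was added after the data were seen.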

Additional observations from a re-analysis of the deposited data

Results flagged for a closer look

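A sample far from the other 4 of its genotype was found in 2 of the 30 groups of 5 arrays (10 genes in 3 genotypes), both in DAT. A gap to the nearest array of more than 0.71 of the whole range was taken as far, which chance alone gives in about 5% of groups. DAT on elav/v105975 replicate 4 was the highest of its genotype, at 7.999 where the other arrays lay between 7.65 and 7.74 (a gap of 0.728 of the range). DAT on v105975/+ replicate 4 was the lowest of its genotype, at 7.37 where the other arrays lay between 7.61 and 7.69 (a gap of 0.728 of the range). Without the first of these, DAT in elav/v105975 over elav/+ had a log2 fold change of 0.11 (adjusted p = 0.427, limma), and without the second, DAT in v105975/+ over elav/+ had one of 0.07 (adjusted p = 0.699). DAT was called in neither comparison with or without them.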

How the results depend on the processing

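The log2 changes of the 10 genes in 3 comparisons gave 690 results under the alternatives, of which 603 kept their direction and side of the threshold, 63 lost the call, 5 gained one and 19 changed sign, and the cause was not tested. Only the 6, 4 and 1 genes called as deposited in the 3 comparisons could lose a call. The 603 therefore include uncalled results that stayed uncalled, and the 63 losses are not a share of all 690. In elav/v105975 over elav/+, 6 genes were called as deposited, 2 at an adjusted p of 0.01, 1 relative to neuron markers and 4 to 6 without single arrays. All probesets called were 1539 as deposited, 635 at 0.01, 2961 relative to neuron markers and 1061 to 1519 without single arrays. In v105975/+ over elav/+, 4 genes were called as deposited, 1 with only the 10 arrays compared, 1 at 0.01, 0 relative to neuron markers, 1 to 4 without single arrays and 5 with an intensity trend or without the dimmest 25% of probesets. All probesets called there were 995 as deposited, 721 with only the 10 arrays compared, 385 at 0.01, 1288 relative to neuron markers and 628 to 1014 without single arrays. In elav/v105975 over v105975/+, Ddc was called whichever single array was left out, and 0 genes were called relative to neuron markers. Median centring called the same 6, 4 and 1 genes. With the replicate number as a block, 5, 2 and 1 genes were called. The labels do not say whether the numbers pair the arrays. Deviations from the genotype means correlated at -0.076 to 0.18 (median 0.017) between same-numbered arrays of different genotypes. Between differently numbered ones they correlated at -0.26 to 0.22 (median -0.016), and only 1 of 15 arrays correlated best with its own number. These values show no sign of pairing but cannot exclude it. Changes of sign were confined to small, uncalled values. Trh in elav/v105975 over v105975/+ gave -0.046 with array weights, -0.022 relative to neuron markers and -0.049 to 0.089 without single arrays, and 5-HT2A there gave -0.0195, -0.024 and -0.0202 to 0.038. Relative to neuron markers, Vmat in that comparison gave -0.0042, and DAT, SerT and 5-HT1A in v105975/+ over elav/+ gave -0.074, -0.048 and -0.0279. DAT there gave -0.0279 to 0.073 without single arrays. The size that could be called depended on each gene's spread over 5 arrays per genotype: in elav/v105975 over elav/+ Galphaq passed at 0.15 and DAT did not at 0.17, and ple did not at -0.31 in v105975/+ over elav/+.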
